A study of Mus musculus with 6 samples.

Results

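U4- and U5-sized spliceosomal snRNAs were followed in the small RNA of exosomes, the small vesicles that cells release into their medium. The members were the rows of the deposited non-coding RNA count table that GENCODE mouse release M21 annotates as snRNA within a narrow length window around U5 (U5-sized, members of 114 to 120 bases) or around U4 (U4-sized, members of up to 145 bases), without the minor spliceosomal RNAs Rnu11 and Rnu12. Of 5880 transcripts in the table, 484 were snRNAs, and 28 of these were members, with 16 in the U5-sized and 12 in the U4-sized group. Exosomes of undifferentiated P19 cells (UD-P19), a mouse embryonal carcinoma cell line, gave 3 libraries (replicates 1 to 3). These cells were grown in α-MEM with 10% fetal bovine serum and then kept for 24 h in serum-free α-MEM with N2 supplement, from which the exosomes were collected. The other 3 libraries (replicates 4, 5 and 6) came from exosomes of P19 neurons (P19N), which were derived from the same line by 4 days of retinoic acid in 5% serum, cultured in neurobasal medium with B27 and N2 supplements, and exposed to 5-fluorouridine and uridine to stop proliferation. P19N medium was collected on day 8 (replicate 4), day 10 (replicate 5) and day 12 (replicate 6), so that culture age and replicate cannot be told apart. The 5-fluorouridine was given on day 3 and again on day 8 after that day's collection, so that replicate 4 preceded the repeat exposure. All 6 were separate exosome preparations from 1 cell line, so that p-values measure the spread between preparations of that line. In P19N this spread also holds culture age and the repeat 5-fluorouridine exposure. Whether the P19N collections came from separate cultures is not stated in the sources used here.

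The spliceosome removes introns from pre-mRNA and is built from small nuclear ribonucleoproteins, each with a uridine-rich snRNA at its core. U1 and U2 snRNAs recognise the 5′ splice site and the branch point, and U4, U5 and U6 then join as a preassembled tri-snRNP. U4 is base-paired to U6 and holds it inactive until it is released during activation, whereas U5 uses its conserved loop 1 to hold the ends of the exons during both catalytic steps. Both RNAs carry a Sm site, a short uridine-rich stretch on which the ring of Sm proteins assembles in the cytoplasm. Mammalian genomes hold several U5 genes whose RNAs differ in the 3′ part (U5 variants), together with many truncated or diverged copies.

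The size windows were checked against sequence. Of the 16 U5-sized members, 11 had a U5 RNA as their closest named snRNA, 2 were closest to U4, 2 to U6 and 1 to U1. Of the 12 U4-sized members, 5 were closest to U4 and 5 to U1, 1 to U12 and 1 to U11. The members are therefore called by size, and U5 or U4 is used only where the sequence supports it. The 9-letter stretch of U5 loop 1, GCCTTTTAC, was present in 9 of 16 U5-sized members, in 0 of 12 U4-sized members and in 0 of 456 other snRNAs. The U5 Sm stretch AATTTTTTG was present in 10 of 16 U5-sized members, 1 of 12 U4-sized members and 2 of 456 other snRNAs. The U4 5′ end GCTTTGCGC was found in 3 of 12 U4-sized members, 2 of 16 U5-sized members and 3 of 456 others, and the U4 Sm stretch AATTTTTGA in 3 of 12, 0 of 16 and 3 of 456. Both strands were searched, and no motif was found on the reverse complement.

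All 7 U5-sized members with at least 15 counts over the 6 libraries were U5 RNAs of 116 bases, so that their counts can be compared with each other without a correction for length. Identities and shared stretches below are from their GENCODE M21 transcript sequences, since the results turn on how these variants differ.

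All 7 held the loop 1 stretch and the Sm stretch. The first 70 bases were identical in the 6 variants other than Gm22265, and the first 26 in all 7. Differences from Rnu5g were summed over separate alignments of the other 6, gaps included, so that a position can count more than once. Of these 45 differences, 30 lay after the Sm stretch and 15 before it, 6 of the latter in Gm22265. Pairs of variants were between 89.0% (Gm23143 and Gm22265) and 97.4% (Rnu5g and Gm25313) identical. A read from the shared 5′ part cannot be assigned to 1 variant. For this reason the deposited unique counts, read as reads that matched 1 transcript only, are given beside all counts.

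The U5 genes lay at 4 places in GRCm38. Gm25313 (chr9:65196572-65196687) and Rnu5g (chr9:65201726-65201841), both on the minus strand, were 5038 bases apart within an intron of Parp16, which is read from the opposite strand. Gm25099 (chr4:117189942-117190057), Gm23143 (chr4:117202528-117202643) and Gm23287 (chr4:117210844-117210959), all on the plus strand, formed a cluster that spanned 21018 bases and overlapped no other annotated gene. Gm22265 (chr1:192745571-192745686, plus strand) lay in an intron of Hhat, which is read from the opposite strand. Gm24871 (chr1:171503048-171503163, minus strand) lay on the same strand within an exon of B930036N10Rik, an antisense RNA gene, so that its whole sequence is contained in 2 longer transcripts of the table.

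Library totals ranged from 454499 to 762575 counts in UD-P19 and from 588646 to 887460 in P19N. A single transcript, Gm42418, held 49.1% to 65.9% of the counts in UD-P19 and 16.3% to 18.2% in P19N. Unique counts were 62.1% to 78.0% of all counts in UD-P19 and 32.1% to 38.5% in P19N. UD-P19 replicate 2 stood apart in several members and is therefore also left out where this changes a result. As a check of the labels, 10 of 12 neuronal non-coding markers were in the table, with a summed count of 3 to 82 in UD-P19 and 44 to 110 in P19N, with overlap. Of the 10, only Rmst was higher in all P19N libraries (0 to 1 counts in UD-P19 and 4 to 20 in P19N), and Mir9-1, Mir9-2, Mir9-3 and Mir124a-3 had 0 counts in UD-P19 and 0 to 2 in each P19N library, too few for a check. The highest UD-P19 sum, 82, was that of UD-P19 replicate 2, in which the imprinted RNA Meg3 held 65, and the part of this difference in the results was not tested. Of 10 markers of undifferentiated cells, 3 were in the table, with sums of 0 to 13 in UD-P19 and 0 to 2 in P19N, too few to check that label.

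The comparison asked which of these snRNAs were more or less abundant in P19N than in UD-P19 exosomes. Of 7 U5-sized members tested on all counts, 1 was lower in P19N and 0 were higher at an adjusted p of at most 0.05 (quasi-likelihood F test of edgeR, adjusted by Benjamini-Hochberg over 1286 transcripts). Over all transcripts tested, 9.02% were called lower and 15% higher. Without overlap of the libraries, 1 of 7 was lower and 0 higher, beside 16.8% lower and 25.2% higher among all transcripts. At an unadjusted p below 0.05, 3 of 7 passed, all lower in P19N (Gm22265, Gm23287 and Gm25099), beside 17.1% lower among all transcripts. Levels are given as CPM, counts per 1000000 of the TMM-scaled library, and the lower level of an RNA cannot be told apart from fewer vesicles that carry it.

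Gm22265, the variant that differs from the others nearest to the 5′ end, was the 1 called. Its level was 284, 317 and 208 CPM in UD-P19 replicates 1, 2 and 3, and 107, 52.8 and 79.3 CPM in P19N replicates 4, 5 and 6. All P19N libraries were below all UD-P19 libraries, with means of 270 ± 55.8 and 79.7 ± 27.1 (SD, n = 3). The log2 fold change was -1.76 (SE 0.45, edgeR adjusted p = 0.00909). It was also called in all 15 alternatives on all counts, with log2 fold changes between -2.18 and -1.42, and without UD-P19 replicate 2 its value was -1.42 (edgeR adjusted p = 0.00649).

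**Figure D1:**
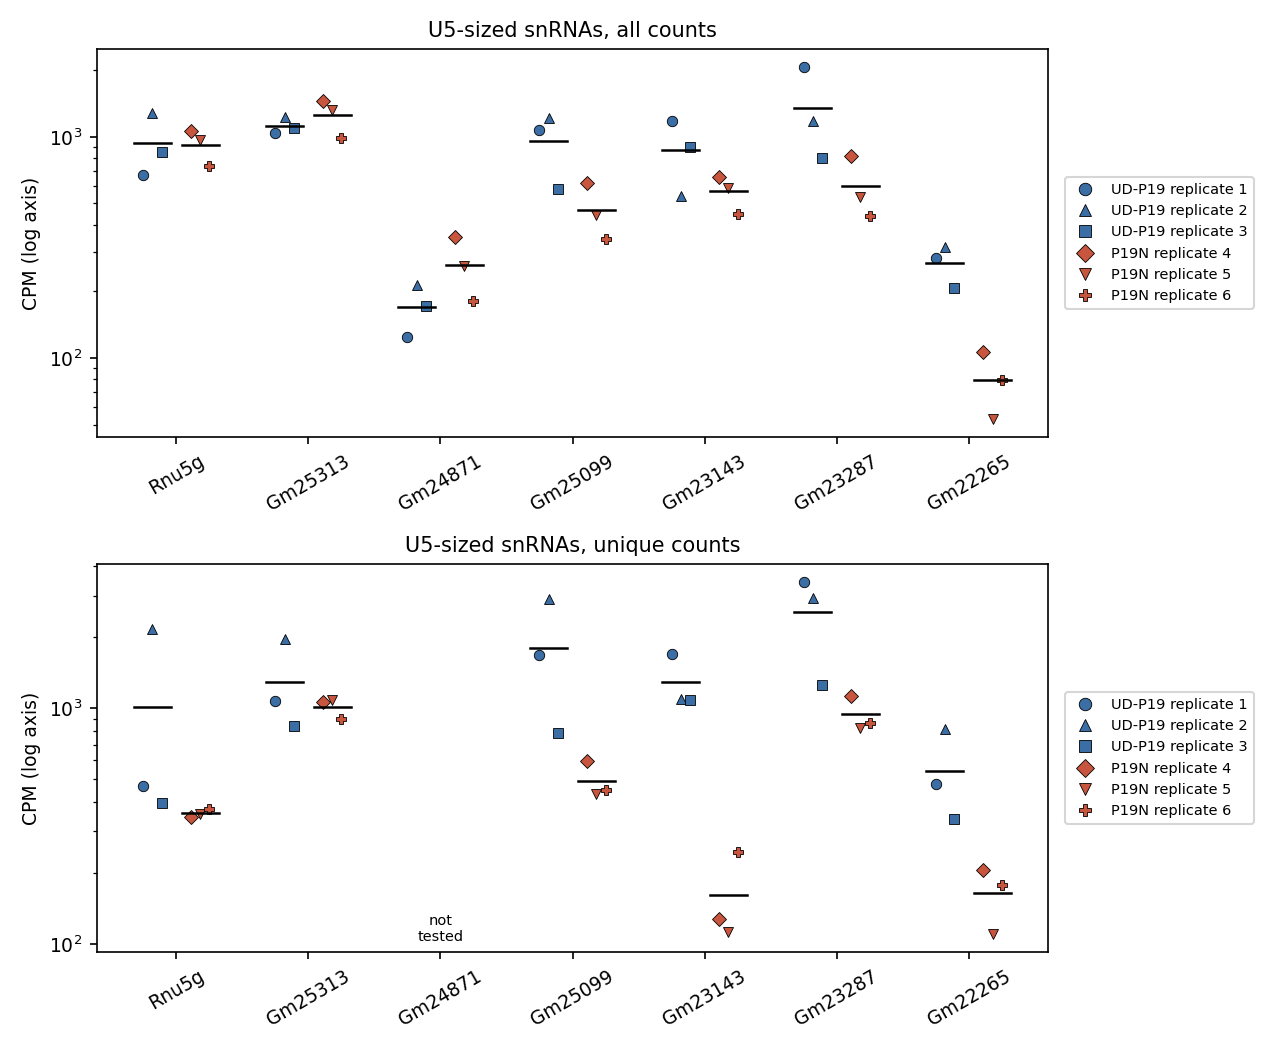
Levels of the 7 tested U5-sized snRNAs in each library as CPM on a log axis, for all counts (top) and unique counts (bottom), with UD-P19 in blue, P19N in red and group means as lines. Gm22265 was lower in all P19N libraries in both panels, while the other 6 overlapped between groups in the top panel. Gm24871 had 0 unique counts.

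Gm25313 and Rnu5g, the chromosome 9 pair, were the members with the most counts when shared reads were included. On unique counts Gm23287 had the most, 3325, followed by Gm25313 with 2350, Gm25099 with 2208 and Rnu5g with 1369. Gm25313, with 5081 counts, was at 1043, 1232 and 1099 CPM in UD-P19 and at 1455, 1319 and 987 CPM in P19N. Rnu5g, with 4049 counts, was at 674, 1287 and 850 CPM in UD-P19 and at 1068, 967 and 735 CPM in P19N. The groups overlapped for both, with UD-P19 replicate 2 the highest UD-P19 library for each. The log2 fold change was 0.16 for Gm25313 (SE 0.35, edgeR adjusted p = 0.769) and -0.02 for Rnu5g (SE 0.38, edgeR adjusted p = 0.968).

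In the chromosome 4 cluster, all 3 variants had a negative log2 fold change that missed the threshold. Gm23287 was at 2072, 1177 and 801 CPM in UD-P19 and at 819, 536 and 438 CPM in P19N, where replicate 4 lay just above UD-P19 replicate 3. Its log2 fold change was -1.17 (SE 0.42, edgeR adjusted p = 0.0558), the U5-sized member nearest to the threshold from outside. Gm25099 was at 1073, 1220 and 583 CPM in UD-P19 and at 617, 442 and 344 CPM in P19N, with UD-P19 replicate 3 the lowest of its group and below P19N replicate 4. Its log2 fold change was -1.03 (SE 0.41, edgeR adjusted p = 0.0808). Gm23143 was at 1176, 539 and 896 CPM in UD-P19 and at 659, 590 and 449 CPM in P19N, with UD-P19 replicate 2 below 2 of the P19N libraries (log2 fold change -0.62, SE 0.40, edgeR adjusted p = 0.259).

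These calls differed between fits that changed the scaling, the test or the libraries. When DESeq2 size factors replaced TMM, when Gm42418 was left out, and with DESeq2 itself, 3 of 7 members were called lower (Gm22265, Gm23287 and Gm25099), and edgeR's exact test called 2 (Gm22265 and Gm23287), while total counts only and TMM without snRNAs left 1 (Gm22265). Over all transcripts, 189 of 1286 were called lower and 178 higher with DESeq2 size factors, 196 of 1285 lower and 174 higher without Gm42418, and 203 of 1286 lower and 175 higher with DESeq2. With the exact test 129 of 1286 were lower and 205 higher, against 116 and 193 with TMM. Total counts only gave 90 lower and 195 higher, and TMM without snRNAs 111 and 190. The median log2 fold change of all transcripts was 0.21 with TMM, 0.05 with DESeq2 size factors and -0.02 without Gm42418. Relative to it, the U5-sized median of -0.62 lay on the lower side. With 1 library left out, Gm23287 was called lower without UD-P19 replicate 2 (log2 fold change -1.10), UD-P19 replicate 3 (-1.66) or P19N replicate 4 (-1.63), and Gm25099 without UD-P19 replicate 3 (-1.53). These fits called 151 of 1145, 161 of 1234 and 75 of 1160 transcripts lower.

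Gm24871 was at 125, 213 and 172 CPM in UD-P19 and at 353, 260 and 181 CPM in P19N. The groups overlapped, since P19N replicate 6 was below UD-P19 replicate 2, and the log2 fold change was 0.63 (SE 0.43, edgeR adjusted p = 0.285). Without UD-P19 replicate 2 it was 1.00 and called higher (edgeR adjusted p = 0.0340), in a fit in which 382 of 1145 transcripts were called higher. Gm24871 had 962 counts and 0 unique counts, and its sequence is also part of B930036N10Rik. The 2 containing transcripts had 1224 and 1250 counts and log2 fold changes of -0.16 and -0.12, neither called, so that reads of the snRNA and of the longer RNA cannot be told apart here.

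On unique counts, the log2 fold changes of all 6 U5 variants tested were negative, except that of Gm25313 when scaled by total unique counts alone (0.67) or without UD-P19 replicate 2 (0.11). Of these 6 U5-sized members, 4 were called lower (Gm23143, Gm25099, Gm22265 and Gm23287) and 0 higher, beside 10.6% lower and 14.3% higher among all 510 transcripts tested. The CPM of 5 of 6 were lower in all P19N libraries than in any UD-P19 library, beside 18.2% lower and 23.1% higher without overlap among all transcripts. The U5-sized median log2 fold change was -1.61, and that of all transcripts -0.05. Scaled by total unique counts alone the U5-sized median was -0.60 and that of all transcripts 1.02, and 1 of 6 was called lower (Gm23143), in a fit that called 18 of 510 transcripts lower and 179 higher. Gm23143 was called with each of the 6 libraries left out in turn, and without P19N replicate 5 it was the only 1 called of 6, at edgeR adjusted p-values of 0.0987, 0.0807 and 0.122 for Gm22265, Gm25099 and Gm23287. Fewer transcripts were called in that fit, 19 of 471 lower and 44 higher. Gm22265 was called without each of the other 5 libraries, Gm25099 was not called without P19N replicate 4 or 6, and Gm23287 not without P19N replicate 4 or 6 or UD-P19 replicate 1. The fits without P19N replicate 4, P19N replicate 6 and UD-P19 replicate 1 called 24 of 461, 58 of 483 and 53 of 494 transcripts lower.

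The member with the lowest log2 fold change on unique counts was Gm23143. It was at 1695, 1090 and 1085 unique CPM in UD-P19 and at 126.9, 112.7 and 245.4 unique CPM in P19N. Every UD-P19 library was several-fold above every P19N library, and the log2 fold change was -2.998 (SE 0.43, edgeR adjusted p = 0.000779), against -0.62 on all counts. Gm25099 was at 1683, 2911 and 785 unique CPM in UD-P19 and at 596, 431 and 449 in P19N, without overlap (log2 fold change -1.86, SE 0.47, edgeR adjusted p = 0.0147).

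Gm23287 was at 3440, 2947 and 1257 unique CPM in UD-P19 and at 1131, 825 and 867 in P19N (log2 fold change -1.44, SE 0.41, edgeR adjusted p = 0.0264). Gm22265 was at 476, 816 and 338 unique CPM in UD-P19 and at 206.2, 109.9 and 178.4 in P19N (log2 fold change -1.72, SE 0.44, edgeR adjusted p = 0.0167). Neither overlapped between groups, and the value of Gm22265 was close to its value on all counts, of which 693 of 698 were unique. Scaled by total counts only they were further apart, at -1.67 on all counts (edgeR adjusted p = 0.0155) and -0.69 on unique counts (edgeR adjusted p = 0.267). Rnu5g was at 467, 2177 and 395 unique CPM in UD-P19 and at 347, 355 and 373 in P19N (log2 fold change -1.50, SE 0.60, edgeR adjusted p = 0.0874). The P19N libraries lay below UD-P19 without overlap, but by a narrow margin outside UD-P19 replicate 2. Without UD-P19 replicate 2 the value was -0.24 (edgeR adjusted p = 0.487), and Rnu5g was called lower without UD-P19 replicate 1 (-1.83, edgeR adjusted p = 0.0380), without UD-P19 replicate 3 (-1.90, edgeR adjusted p = 0.0359) and with DESeq2 (-1.49, adjusted p = 0.0345). These fits called 53 of 494, 45 of 489 and 71 of 510 transcripts lower. Gm25313 overlapped, at 1071, 1970 and 842 unique CPM against 1058, 1087 and 899 (log2 fold change -0.35, SE 0.38, edgeR adjusted p = 0.535).

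**Figure D2:**
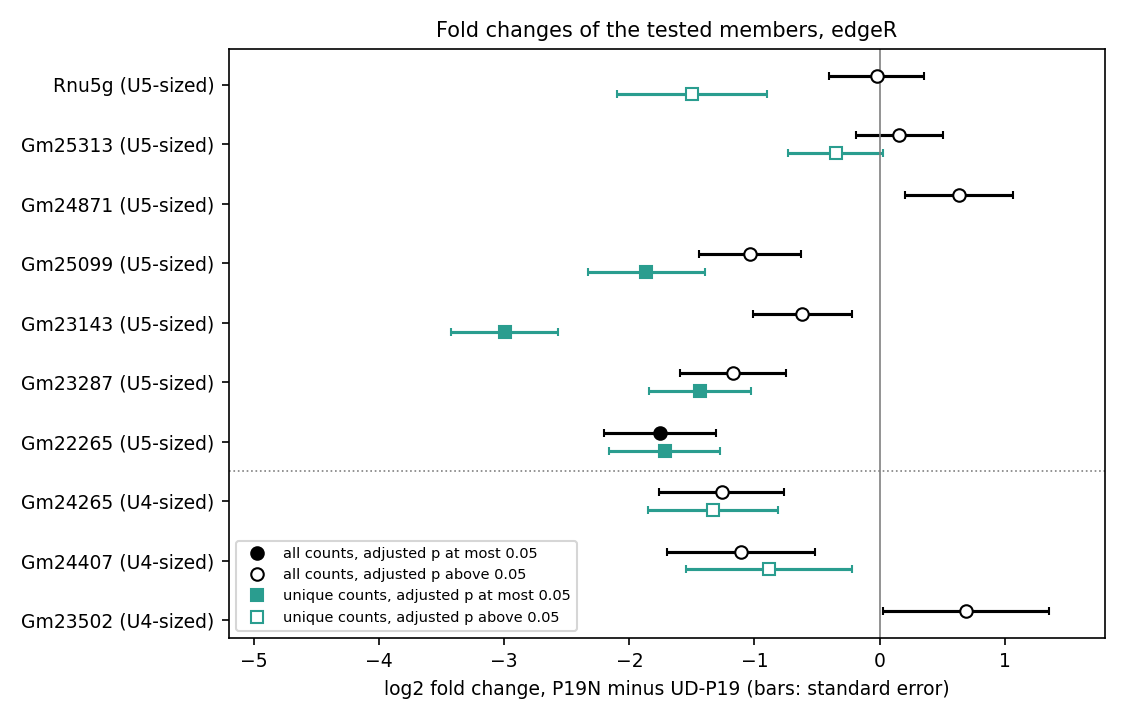
log2 fold changes (P19N minus UD-P19) of the 10 tested members with their standard errors, for all counts (circles) and unique counts (squares), filled where the edgeR adjusted p was at most 0.05. Of the circles, 1 is filled (Gm22265), and of the squares, 4 (Gm25099, Gm23143, Gm23287 and Gm22265); Gm24871 and Gm23502 were not tested on unique counts.

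The share of a member's counts that was unique differed between groups. For Gm23143 it was 85.4%, 78.5% and 73.3% in UD-P19 and 9.98%, 8.95% and 23.8% in P19N. For Gm25099 it was 92.9%, 92.6% and 81.6% against 50.1%, 45.7% and 57.1%. For Gm23287 it was 98.3%, 97.2% and 95.1% against 71.6%, 72.2% and 86.3%. Rnu5g was at 45.0% ± 19.05 and 18.7% ± 2.98 and Gm25313 at 56.4% ± 8.71 and 38.7% ± 1.03 (mean ± SD, n = 3), and P19N was lower without overlap in all 5. Gm22265 was at 99.2% ± 0.795 and 98.6% ± 1.28, with overlap. Beside these 5 of 6, the unique share was lower without overlap in 8.39% and higher in 4.64% of 453 transcripts with a count in every library and at least 15 unique counts. The unique share of the whole library was lower in P19N too, also without Gm42418 (25.6% to 35.6% against 18.9% to 24.8%), and its part in the lower unique counts of these members was not tested.

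The counts that were not unique were higher in all P19N libraries at the 5 loci whose unique share was lower, as they were for 21.5% of all transcripts tested (6.07% were lower), and overlapped at Gm22265 and Gm24871. Gm23143 had 70, 98 and 145 of them in UD-P19 and 505, 407 and 246 in P19N, and Gm25099 had 31, 76 and 65 against 262, 182 and 106. These values are before any scaling. Reads at the chromosome 4 loci in P19N were thus to a larger part reads that also matched another transcript. How such reads were divided among the copies is not given in the sources used here. Non-unique counts of Gm25313 were 167, 395 and 357 in UD-P19 and 771, 614 and 427 in P19N. Those of Rnu5g were close in each library, at 162, 374 and 370 in UD-P19 and 756, 607 and 411 in P19N. Copies can share reads, so that the 5 loci are not independent observations.

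**Figure D3:**
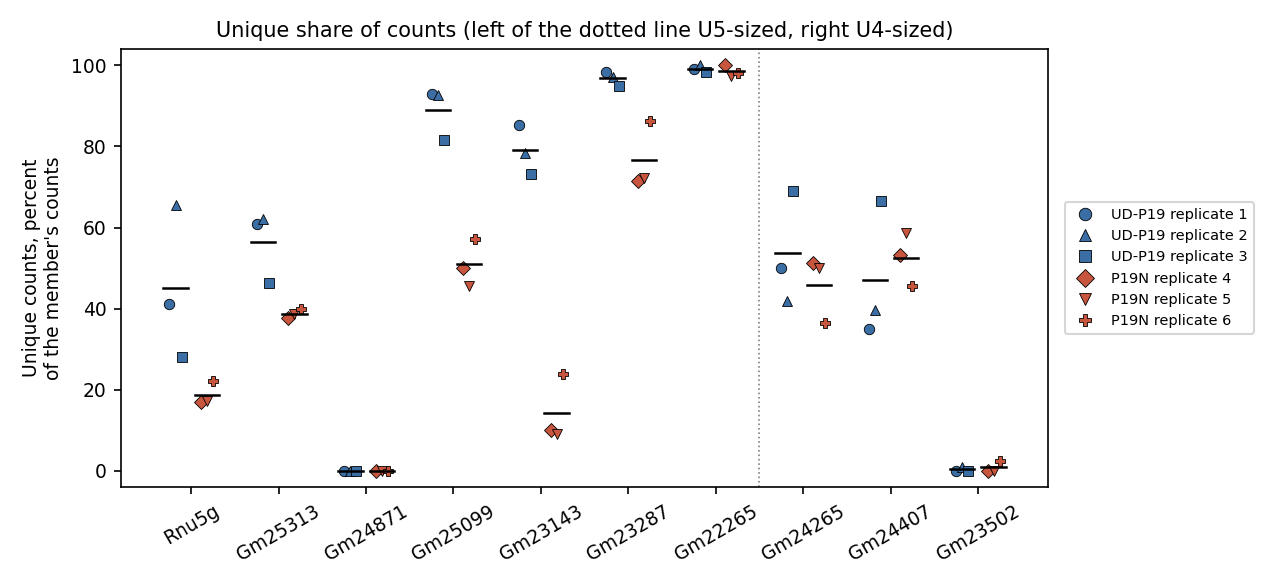
Unique counts as a percent of each tested member's counts in each library (UD-P19 blue, P19N red, group means as lines). The share was lower in all P19N libraries for Rnu5g, Gm25313, Gm25099, Gm23143 and Gm23287, near 100% in both groups for Gm22265, and near 0 for Gm24871 and Gm23502.

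The deposited exact counts, read as reads without a mismatch, set Gm23287 apart. They made up 16.0% of its counts, against 54.4% to 73.5% in the other 6 tested U5-sized members. The exact share of Gm23287 was 9.22%, 12.4% and 14.6% in UD-P19 and 25.3%, 25.6% and 15.2% in P19N. At Gm24871 it was 35.3%, 29.4% and 42.3% in UD-P19 and 73.7%, 70.6% and 70.8% in P19N. It was higher in all P19N libraries for both, and for every other tested U5-sized member except Gm22265, where the groups overlapped. Beside these 6 of 7, the exact share was higher without overlap in 15.3% and lower in 3.58% of 1033 tested transcripts with a count in every library. Over the whole library it was 44.2% to 60.4% in UD-P19 and 58.4% to 64.4% in P19N, with overlap, and without Gm42418 it was 31.5% to 49.0% and 64.3% to 68.8%, higher in P19N without overlap. The part of this library-wide difference in the members' values was not tested.

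The composition of the U5 pool does not depend on the scaling between libraries, and it differed between groups. Gm25313 held 16.2%, 20.6% and 23.8% of the U5-sized counts in UD-P19 and 28.6%, 31.6% and 30.7% in P19N. Gm24871 was at 3.07% ± 0.986 and 6.27% ± 0.656 (SD, n = 3), and Gm22265 was at 4.73% ± 0.483 and 1.95% ± 0.616. Gm23287 was at 32.1%, 19.7% and 17.4% against 16.1%, 12.8% and 13.6%, and Gm25099 at 16.6%, 20.4% and 12.6% against 12.1%, 10.6% and 10.7%. The groups did not overlap for these 5, while Rnu5g (16.8% ± 5.71 and 22.4% ± 1.17) and Gm23143 (15.6% ± 5.71 and 13.7% ± 0.635) overlapped. These shares include shared reads and are parts of the same whole, so that they are not independent of each other. No share over all transcripts was computed beside them.

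By locus, the chromosome 9 pair held 26.6%, 42.1% and 42.3% of the U5-sized counts in UD-P19 and 49.7%, 54.8% and 53.5% in P19N. The chromosome 4 cluster held 67.0%, 49.0% and 49.4% against 41.2%, 37.6% and 38.3%. On unique counts the pair held 26.2% ± 8.70 in UD-P19 and 44.0% ± 4.70 in P19N, and the cluster 67.3% ± 9.45 and 50.7% ± 3.45, again without overlap. On unique counts it was Gm25313 that held more (15.5% ± 3.03 and 32.5% ± 4.08) and Gm23143 that held less (17.1% ± 7.18 and 5.22% ± 2.53), while the share of Rnu5g, Gm23287, Gm25099 and Gm22265 overlapped between groups. The shares are descriptions with no test, since an exact two-sided permutation test of 3 against 3 libraries cannot give a p below 0.1.

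**Figure D4:**
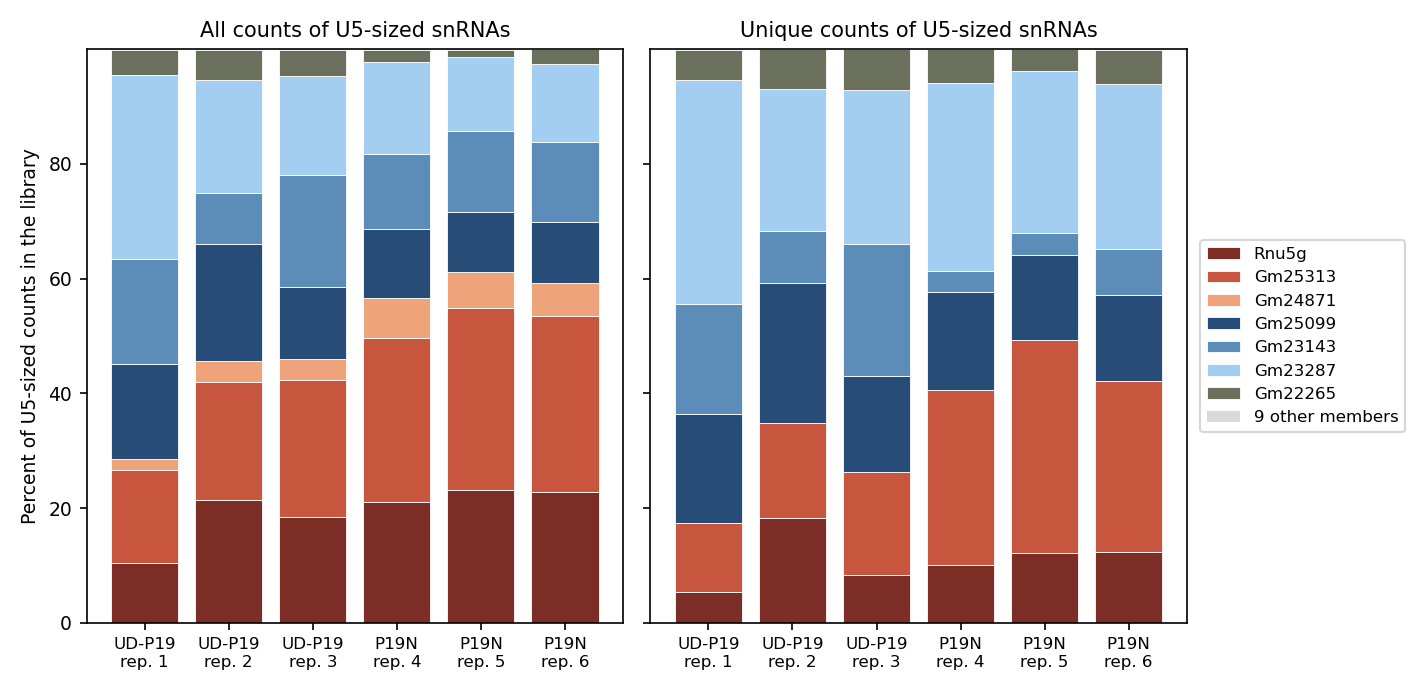
Composition of the U5-sized counts of each library, as percent of the summed counts of the 16 members, for all counts (left) and unique counts (right). The chromosome 9 pair (dark and mid red) held 49.7% to 54.8% of all counts in P19N and 26.6% to 42.3% in UD-P19, and the chromosome 4 cluster (blue) 37.6% to 41.2% and 49.0% to 67.0%.

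Summed over the 16 members, the U5-sized RNAs had 2634, 5067 and 2794 counts in UD-P19 and 4324, 3160 and 2310 in P19N. This was 0.580%, 0.719% and 0.366% of the library's counts in UD-P19 and 0.487%, 0.416% and 0.392% in P19N, with UD-P19 replicate 2 the highest and UD-P19 replicate 3 the lowest. The groups overlapped, at 0.555% ± 0.178 and 0.432% ± 0.0494 (SD, n = 3). The overlap depended on the denominator. Without Gm42418 among the library's counts the share was 1.45%, 1.41% and 1.08% in UD-P19 and 0.585%, 0.497% and 0.479% in P19N, lower in all P19N libraries, while that denominator was 181495 to 358741 counts in UD-P19 and 481795 to 739727 in P19N. As a share of the snRNA counts alone the same RNAs were at 7.85%, 11.9% and 7.70% in UD-P19 and at 0.924%, 0.820% and 0.814% in P19N. On all counts the U5-sized sums themselves overlapped. The snRNA total beneath them was 33552 to 42708 counts in UD-P19 and 283856 to 468093 in P19N. This all-count share is thus set mainly by its denominator. Unique U5-sized counts summed to 2137, 3913 and 1725 in UD-P19 and to 1529, 1037 and 946 in P19N, lower without overlap. They were 17.1% ± 9.11 of unique snRNA counts in UD-P19 and 4.26% ± 0.620 in P19N, also without overlap. That denominator was 14275 to 16960 in UD-P19 and 19080 to 37728 in P19N. Of all unique counts they were 0.606% ± 0.303 and 0.454% ± 0.0559, with overlap. When near-identical copies were summed to families, the U5 family of 10 transcripts and 20286 counts had a log2 fold change of -0.51 (SE 0.32, edgeR adjusted p = 0.296), in a fit that called 8.39% of 822 families higher and 11.2% lower.

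Of the other 9 U5-sized members, 4 had between 1 and 14 counts and 5 had a count of 0 in all libraries, which allows up to 3 counts in each. The largest was Gm22365 (chr19:61164365-61164481), a U5 copy of 117 bases with both U5 stretches and 7 counts. Its counts were 2, 3 and 1 in UD-P19 and 0, 1 and 0 in P19N, too few for a comparison. The 4 U5-sized members closest to U4 or U6 were all at 0.

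The U4-sized group was much smaller in counts, with 931 in all against 20289 for the U5-sized group. Its 2 U4 genes with at least 15 counts, Gm24265 (chr5:115489459-115489599) and Gm24407 (chr5:115490254-115490394), lie 654 bases apart on the plus strand and overlap no other annotated gene. Their sequences of 141 bases (GENCODE M21, GRCm38, DNA letters, 5′ to 3′) are shown because 2 bases, in capitals in Gm24407, are all that separates their reads.
Gm24265: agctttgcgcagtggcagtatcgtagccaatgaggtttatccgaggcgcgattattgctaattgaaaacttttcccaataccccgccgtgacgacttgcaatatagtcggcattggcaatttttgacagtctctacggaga
Gm24407: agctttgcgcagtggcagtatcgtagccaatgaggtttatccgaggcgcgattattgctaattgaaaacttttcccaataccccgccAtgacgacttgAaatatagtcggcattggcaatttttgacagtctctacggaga

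Of 3 U4-sized members tested on all counts, 0 were called in either direction by edgeR's quasi-likelihood test, and 1 (Gm24265, lower) had an unadjusted p below 0.05, beside 17.1% lower among all transcripts. DESeq2 called 1 of 3, Gm24265, lower, in a fit that called 203 of 1286 transcripts lower, and edgeR's exact test called 0. Without overlap, 1 of 3 was lower and 0 higher, beside 16.8% and 25.2% of all transcripts. Gm24265 was at 73.5, 147 and 69.3 CPM in UD-P19 and at 48.2, 42.2 and 30.6 CPM in P19N. All P19N libraries were below UD-P19, and UD-P19 replicate 2 was the highest (log2 fold change -1.26, SE 0.50, edgeR adjusted p = 0.0823). Without UD-P19 replicate 2 the value was -0.64 (edgeR adjusted p = 0.222), and without UD-P19 replicate 1 or 3 it was -1.70 or -1.71 and called lower (edgeR adjusted p = 0.0374 and 0.0419), in fits that called 174 of 1257 and 161 of 1234 transcripts lower.

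Gm24407 was at 49.0, 176 and 39.6 CPM in UD-P19 and at 55.2, 38.3 and 30.6 CPM in P19N. The groups overlapped, and UD-P19 replicate 2 held 149 of the 193 UD-P19 counts (log2 fold change -1.11, SE 0.59, edgeR adjusted p = 0.174). Without it, the log2 fold change was 0.09, so the direction of Gm24407 rested on that library. On unique counts, 0 of 2 were called by edgeR's quasi-likelihood test, by its exact test or by DESeq2, and 1 (Gm24265) had an unadjusted p below 0.05, beside 18.6% lower among all transcripts. Gm24265 was at 62.0, 158 and 79.1 unique CPM in UD-P19 and at 47.6, 45.1 and 25.5 in P19N (log2 fold change -1.33, SE 0.52, edgeR adjusted p = 0.0815), without overlap. Gm24407 was at 28.9, 180 and 43.6 against 56.7, 47.9 and 31.9, with overlap (log2 fold change -0.88, SE 0.66, edgeR adjusted p = 0.354). This direction turned without UD-P19 replicate 2 (0.34) and with total counts only (0.13).

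The third U4-sized member tested, Gm23502 (chr14:21812711-21812855, plus strand), was U12-like by sequence, with 92.1% identity to Rnu12, the branch-point RNA of the minor spliceosome. It had 313 counts, of which 2 were unique. It was at 14.7, 118 and 18.2 CPM in UD-P19 and at 81.1, 113.5 and 57.1 CPM in P19N. UD-P19 replicate 2 was the highest of all 6 libraries, whereas the other UD-P19 libraries were below all P19N libraries (log2 fold change 0.69, SE 0.67, edgeR adjusted p = 0.456). Without UD-P19 replicate 2 the log2 fold change was 2.497 and called higher (edgeR adjusted p = 0.00039), as were 382 of 1145 transcripts in that fit. Rnu12 itself was higher in P19N with a log2 fold change of 1.24 (edgeR adjusted p = 0.0257), and so was the family of 4 transcripts that holds both (log2 fold change 1.22, SE 0.33, edgeR adjusted p = 0.0243).

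The U4 family (Gm24265, Gm24407 and Gm25899, 583 counts) was at -1.33 on the log2 scale (SE 0.54, edgeR adjusted p = 0.123). In all, U4-sized RNAs held 0.0128%, 0.0532% and 0.0104% of the counts in UD-P19 and 0.0190%, 0.0205% and 0.0160% in P19N, with overlap and with UD-P19 replicate 2 the highest. The difference in means (P19N minus UD-P19) was -0.00693 percentage points, but 0.00695 without UD-P19 replicate 2 and 0.000328 on unique counts. Without Gm42418 in the denominator the shares were 0.0320%, 0.105% and 0.0304% against 0.0228%, 0.0245% and 0.0195%, and of snRNA counts alone 0.423% ± 0.395 against 0.0366% ± 0.00371 (SD, n = 3), both lower in all P19N libraries over the same higher denominators. Within this small pool Gm23502 held 17.0% ± 8.58 in UD-P19 and 46.5% ± 7.58 in P19N (SD, n = 3). Gm24265 held 46.0% ± 11.2 and 22.7% ± 1.96, and Gm24407 34.9% ± 4.69 and 23.3% ± 4.61, each without overlap. These shares too are parts of the same whole and not independent of each other. On unique counts Gm24265 held 59.7% ± 11.6 and 41.6% ± 4.79, without overlap. Gm24407 then went the other way, at 40.0% ± 11.1 and 48.3% ± 2.79, with overlap, and Gm23502 overlapped near 0. Of the other 9 U4-sized members, 8 had between 1 and 10 counts and 1 had 0. The largest was Gm24621 (chr4:129458351-129458490), a U1-like copy with 0 counts in each UD-P19 library and 6, 1 and 3 in P19N, under the filter of 15 counts.

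The other RNAs of the spliceosome gave the scale for these values. Of 37 U1-sized snRNAs tested on all counts, 33 were higher and 0 lower, with a median log2 fold change of 3.85, and of 13 U2-sized snRNAs all 13 were higher, with a median of 2.25. Of 124 U6-sized snRNAs, 5 were higher and 1 lower (median 1.34), and many of these copies share their reads. On unique counts 15 of 16 U1-sized (median 4.5995), 2 of 5 U2-sized (1.96) and 2 of 18 U6-sized snRNAs (1.37) were higher and 0 lower. Rnu11, the minor spliceosomal RNA that recognises the 5′ splice site, had a log2 fold change of 0.57 and Rnu7, which acts in histone mRNA processing, of 0.33, neither called. Of 23 scaRNAs, which guide the modification of spliceosomal snRNAs, 17 were higher and 1 lower (median 2.84). Against these, the U5-sized median was -0.62 (0 of 7 higher) and the U4-sized median -1.11 (0 of 3 higher), and the difference between classes was not tested. The U5-sized median stayed between -0.91 and -0.45 in all alternatives on all counts, whereas the U4-sized median was 0.09 without UD-P19 replicate 2.

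**Figure D5:**
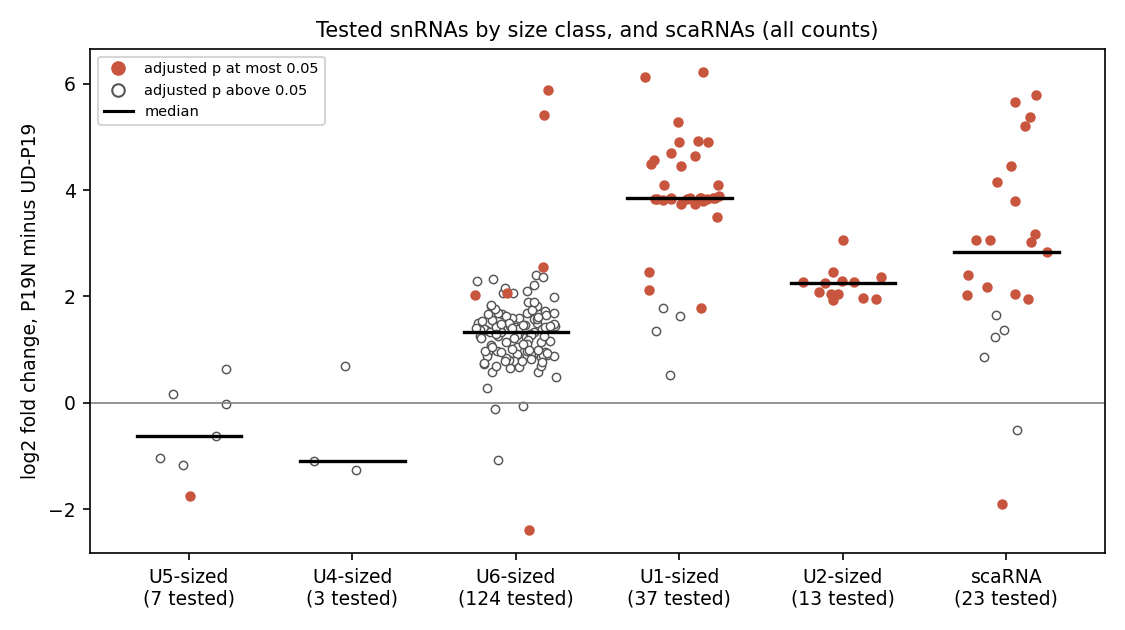
log2 fold changes (P19N minus UD-P19, all counts) of tested snRNAs by size class and of scaRNAs, 1 point per transcript, filled where the edgeR adjusted p was at most 0.05, with class medians as lines. The U5-sized median of -0.62 and the U4-sized median of -1.11 (0.09 without UD-P19 replicate 2) lie below 0, and those of the U6-sized (1.34), U1-sized (3.85) and U2-sized (2.25) RNAs above it.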

How the data were processed

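Exosomes were isolated by differential centrifugation, and small RNA libraries were made from 200 ng RNA each. The authors trimmed adaptors, joined the read pairs, matched them to GRCm38 non-coding RNAs in CLC Genomics Workbench with default parameters and deposited raw counts per transcript. Tool versions, and how a read matching several transcripts was counted, are not given in the sources used here. The file gives no definition of its unique and exact columns. The reading of unique counts was checked on Gm24871, whose sequence lies whole within other transcripts and which had 0, and the reading of exact counts was assumed. A further 54 columns of per-sample values, and the authors' means, fold changes and p-values from edgeR's exact test, were not used.

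Of 5880 rows, 5773 matched GENCODE M21 by identifier and 107 did not. Rows that summed to 15 or more counts were tested with edgeR 4.0.16 (R 4.3.3, TMM, quasi-likelihood F test, no covariate), 1286 on all counts and 510 on unique counts. The call was set at an adjusted p of 0.05 or lower. Standard errors were back-calculated, as the absolute log2 fold change divided by the square root of the F statistic. DESeq2 1.42.0, edgeR's exact test, other filters and scalings, summed copies and each library left out were alternatives. On simulated data with a log2 fold change of 2, 74.5% of changed transcripts were recovered on all counts and 88.5% on unique counts. The changed transcripts were drawn in both directions, and only from those with a higher mean count than the filter asks for. Smaller changes, such as those of most members, were not simulated. Families joined transcripts with at least 90% identity over 80% of the longer (BLAST 2.17.0), and identities are from global alignments (Biopython 1.88). Every member with at least 15 counts may be named, with full statistics for the 6 largest of each size group and each called member, and of the rest the largest. The members and lists were chosen with earlier results of these data known. No replicate numbers are shared between groups. The sequences of the U5-sized members are not reported here.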

Additional observations from a re-analysis of the deposited data

How the results depend on the processing

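No log2 fold change called in any fit on all counts had another sign than the one reported, while uncalled ones of Gm25313 and Rnu5g changed sign with the scaling, a filter or a library left out, that of Gm24407 without UD-P19 replicate 2 and that of Gm23502 without UD-P19 replicate 1. Among the log2 fold changes of single members, 135 of 158 alternatives kept their side of the threshold and 23 passed it anew. The count of U5-sized members called (1, lower) became 3, all lower, at a total of at least 5 counts (207 of 2079 transcripts lower and 190 higher), with DESeq2 size factors, without Gm42418 and with DESeq2, 2 with the exact test, 0 with copies summed, and 1 to 3 with a library left out. It was 3 lower without UD-P19 replicate 3 (161 of 1234 transcripts lower), 2 lower and 1 higher (Gm24871) without UD-P19 replicate 2 (151 of 1145 lower and 382 higher), and 2 lower without P19N replicate 4 (75 of 1160 lower). The count of U4-sized members called (0) became 1 at a total of at least 5 counts (Gm24621, higher, 1 of 6 tested, in the same fit), with DESeq2 size factors, without Gm42418 and with DESeq2 (Gm24265, lower), with copies summed (the U12 family, higher), and 0 to 1 with a library left out. The 1 was Gm24265, lower, without UD-P19 replicate 1 or 3 (174 of 1257 and 161 of 1234 transcripts lower) and Gm23502, higher, without UD-P19 replicate 2. On unique counts the U5-sized count (4) was 1 with total counts only, 5 with DESeq2 (Rnu5g added, 71 of 510 transcripts lower) and 1 to 5 with a library left out (5 without UD-P19 replicate 3, with 45 of 489 lower, and 2, 1 and 2 without P19N replicate 4, 5 or 6), and the U4-sized count stayed 0. The cause of these changes was not tested.

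The U5-sized share of counts differed by -0.123 percentage points (P19N minus UD-P19), by -0.793 without Gm42418 in the denominator and by -8.28 of snRNA counts, and the U4-sized share by -0.00693, -0.0333 and -0.386. The groups overlapped with the first denominator and separated with the others. As shares of all unique counts, the U5-sized difference was -0.152 and the U4-sized difference 0.000328, both with overlap. With a library left out, the U5-sized difference on all counts was between -0.218 and -0.0412. The U4-sized difference was between -0.0145 and 0.00695, and it turned positive without UD-P19 replicate 2. No paired analysis was possible because the groups share no replicate number. At this depth 9 of 16 U5-sized and 9 of 12 U4-sized members had fewer than 15 counts and were not tested in the main fits.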
